A study of Oryza sativa with 18 samples.

Results

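Messenger RNA of booting panicles was set against that of flag leaves in rice (Oryza sativa, cultivar Nipponbare, the japonica reference cultivar), with 3 input libraries from each organ. These are 6 of the 18 libraries of the study and 6 of its 9 input libraries, which hold fragmented poly(A) RNA that was not enriched for N6-methyladenosine (m6A); the other 3 inputs are from panicles at flowering and are given beside the results for reference. All plants carried the same genotype and grew in an experimental field. Panicles were taken at the booting stage and flag leaves at the flowering stage, both at about 3 PM, so organ and stage change together here and cannot be told apart. Nothing in the labels says whether replicates came from separate plants or whether plants were pooled, so the p-values below measure only the spread between libraries labelled as replicates. A gene entered the comparison when its level reached 1 FPKM (mapped fragments scaled to transcript length and library size) in at least 3 of the 6 libraries, which 21751 of 38663 genes did. A gene was called when limma's moderated test on log2(FPKM + 1) gave an adjusted p under 0.05 and the mean change was at least 1 log2 unit. Changes are written as panicle minus leaf, and adding 1 FPKM understates the change of genes with low levels.

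At booting the rice panicle is still enclosed by the sheath of the flag leaf. Its spikelets are completing their floral organs, the pollen mother cells in the anthers go through meiosis, and the tapetum, the innermost layer of the anther wall, feeds the developing microspores and supplies the material of the pollen wall. The flag leaf is the uppermost leaf and a main source of the sugars that later fill the grain. It is fully expanded and photosynthetic, and its cells have largely stopped dividing.

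Marker genes matched the organ labels. The summed level of 18 leaf mesophyll markers (Rubisco small subunits, Rubisco activase and chlorophyll a/b-binding proteins) was 1601, 2084 and 1429 FPKM in the booting panicles and 36354, 36230 and 36577 FPKM in the leaves, with 1 of the 18 listed at 0 in every library of both groups. The 6 floret markers, which are MADS-box genes and DROOPING LEAF, summed to 1018, 982 and 1002 FPKM in the panicles and to 18.2, 18.8 and 15.8 FPKM in the leaves. The 6 markers of tapetum and microspores summed to 1631, 1167 and 1281 FPKM against 2.53, 2.66 and 0.751 FPKM. The 3 markers of mature pollen were low in both organs, at 12.4 to 13.6 FPKM in the booting panicles and 6.22 to 17.8 FPKM in the leaves, where flowering panicles reached 5386 to 6618 FPKM. Leaf markers were thus measurable in the booting panicle libraries, and floret and tapetum markers were measurable, at much lower levels, in the leaf libraries. The part of such RNA in the results below was not tested. In bulk tissue, fewer cells of a type and less RNA per cell cannot be told apart.

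**Figure D1:**
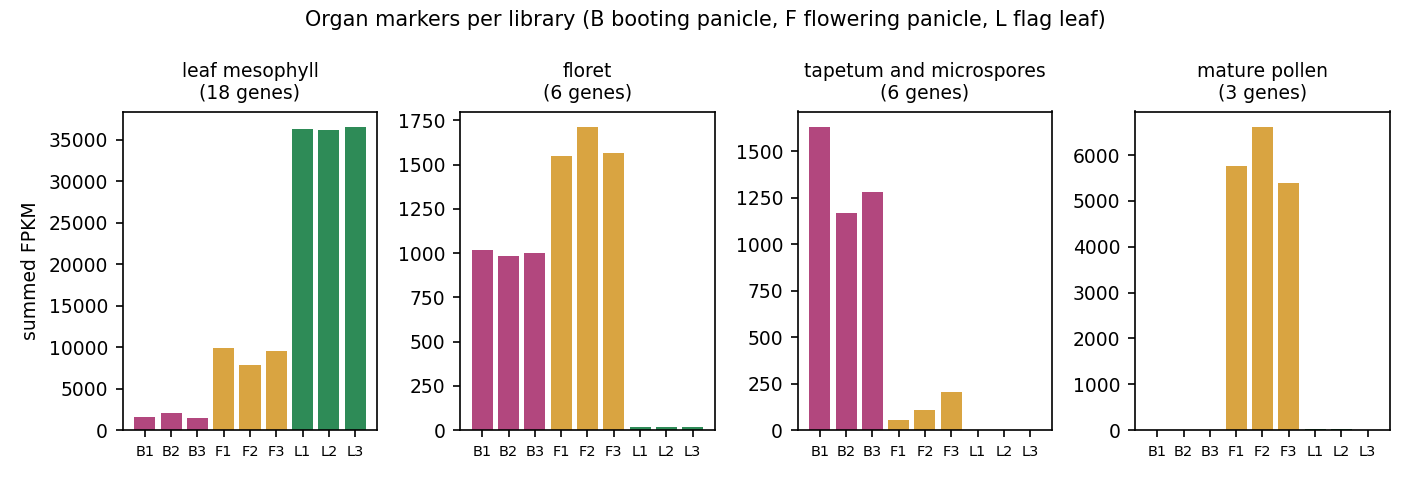
Summed FPKM (linear axes that start at 0, 1 scale per panel) of 4 marker sets in each of the 9 input libraries, 1 bar per library. Leaf mesophyll markers stand highest in the leaf libraries (36230 to 36577), floret markers in both kinds of panicle, tapetum markers in the booting panicles (1167 to 1631) and mature pollen markers in the flowering panicles.

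Libraries of the same organ correlated at 0.988 to 0.995 on log2(FPKM + 1) across genes, and libraries of different organs at 0.392 to 0.439. The median standard deviation of a gene over replicates was 0.111 log2 units in the booting panicles and 0.0742 in the leaves. FPKM values summed to 504583 to 517607 per panicle library and to 529966 to 531479 per leaf library. The 10 most abundant genes held 2.89% to 3.31% of that sum in the panicle and 12.5% to 13.1% in the leaf. Leaf replicate 3 stood apart at the low end. For the 416 genes called higher in the panicle by at least 5 log2 units, the median level in leaf replicates 1, 2 and 3 was 0.353%, 0.357% and 0.120% of the panicle mean, and replicate 3 was the lowest of the leaf libraries for 364 of the 416. On the other side, 219 genes were called higher in the leaf by at least 5 log2 units. Their median level in panicle replicates 1, 2 and 3 was 0.706%, 0.858% and 0.526% of the leaf mean. Panicle replicate 3 was the lowest of the panicle libraries for 141 of these genes. What sets the low values in either organ was not tested. With leaf replicates 1 and 2 left out, a setting chosen after these values were seen, 12598 genes were called; the single leaf library left is then assumed to vary like the panicle libraries, so the count is no independent check.

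The transcriptomes of the organs differed over most of the genes measured. Of 21751 genes, 12521 (57.6%) were called, of which 8404 (38.6% of the genes tested) were higher in the booting panicle and 4117 (18.9%) were higher in the flag leaf. The median change of all genes tested was 0.58 log2 units towards the panicle, so the background for every group below is a shift in that direction. This split depended on scaling. The panicle held 67.1% of the called genes in the deposited values, and 50.2% after quantile normalization, which calls 5715 genes (26.3%) higher in the panicle and 5668 (26.1%) higher in the leaf and leaves a median change of 0.05. Changes of at least 5 log2 units were called towards the panicle for 416 genes and towards the leaf for 219. In the panicle, 19572 genes of the whole table reached 1 FPKM in all 3 libraries, against 16845 in the leaf. Levels were more concentrated in the leaf, where 41 genes had a mean of at least 1000 FPKM, against 12 in the panicle. Genes at or above 20 FPKM in all 3 libraries of 1 organ and under 0.1 FPKM in all 3 of the other numbered 84 for the panicle and 19 for the leaf.

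**Figure D2:**
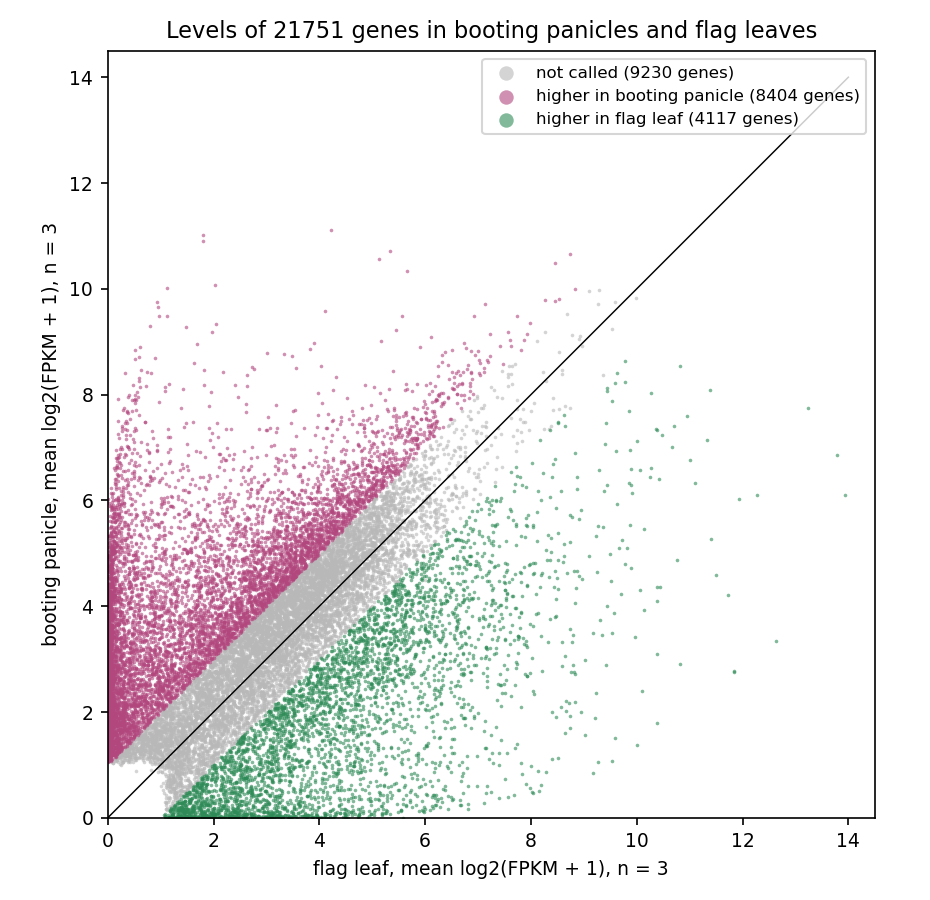
Mean log2(FPKM + 1) of 21751 genes in the flag leaf (x axis, n = 3) and the booting panicle (y axis, n = 3), coloured by call, with the line of equal level. The 8404 genes called higher in the panicle outnumber the 4117 called higher in the leaf, and the points farthest along an axis are leaf genes.

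A gene near 0 in one organ can pass the filter only by being high in the other, so the counts over gene groups below describe the members that passed and are given beside the share of all tested genes called in that direction (38.6% and 18.9%) and the median of all tested genes (0.58). After quantile normalization the shares of all tested genes called were 26.3% for the panicle and 26.1% for the leaf, with a median of 0.05. With 5 FPKM added before the logarithm, 5105 of the 21751 genes were called higher in the panicle and 2707 higher in the leaf. Group counts from those settings are to be read beside these values. The plot of changes by gene group shows the spread inside each group.

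**Figure D3:**
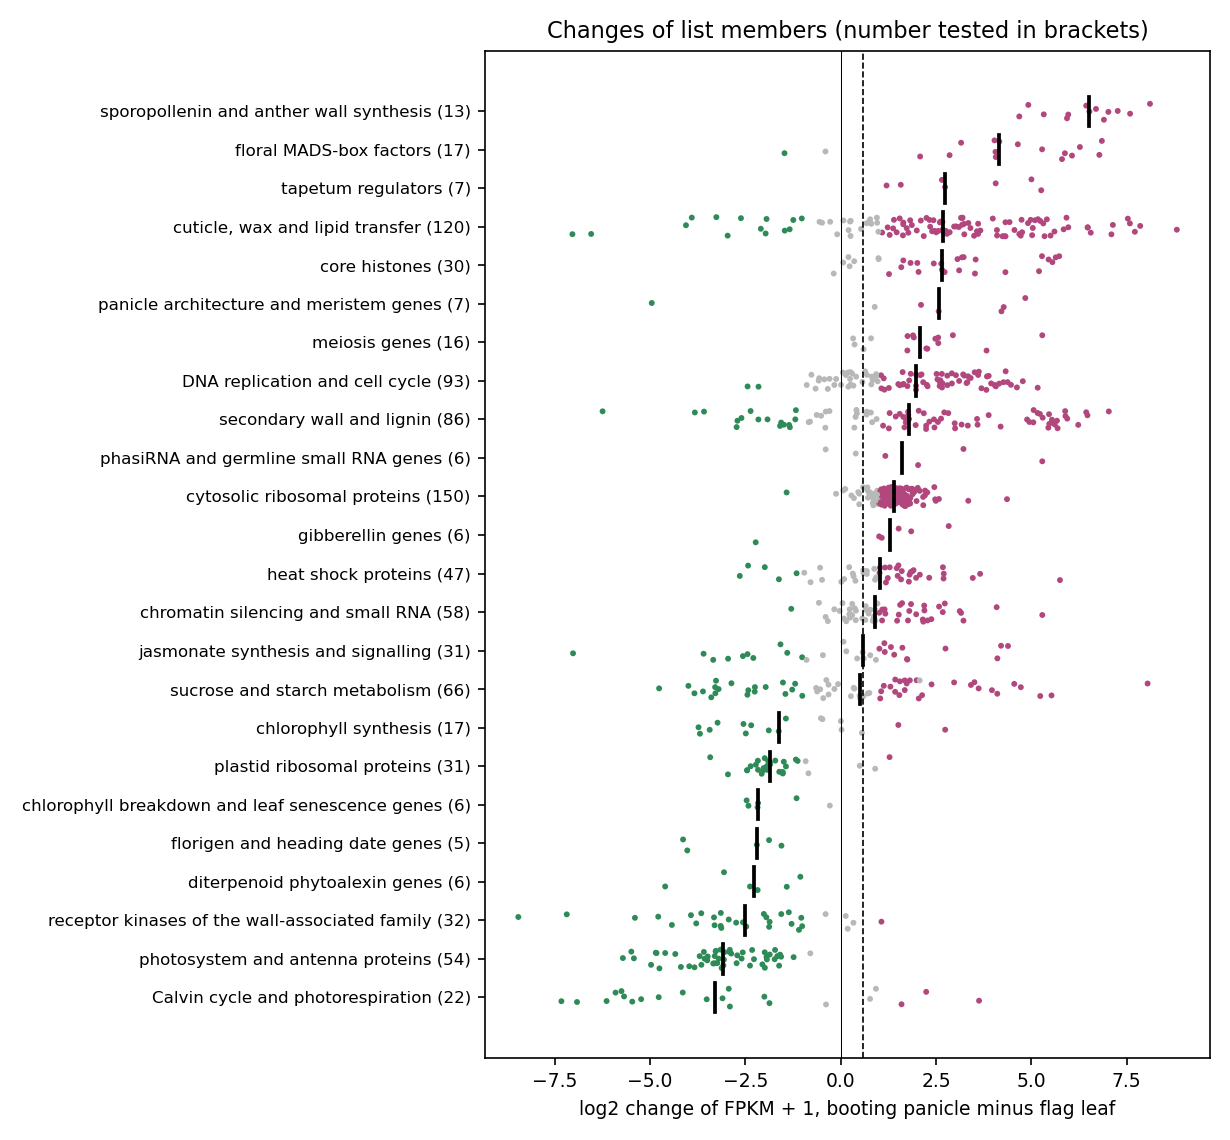
Log2 changes of FPKM + 1, booting panicle minus flag leaf, for the tested members of 24 gene groups (points, spread vertically for visibility), ordered by group median (thick black line). Points are purple where called higher in the panicle, green where called higher in the leaf and grey where not called, and the dashed line is the median of all 21751 genes. Sporopollenin and anther wall genes have the highest median (6.52) and Calvin cycle and photorespiration genes the lowest (-3.31).

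Called genes with at least 20 FPKM in the higher organ were ranked, leaving out those described as uncharacterized, hypothetical or the like. Among them, the largest increases in the panicle belonged to an MLP-like protein, MFS18 protein, a lipid-transfer protein, proline-rich proteins and enzymes. A gene described as an MLP-like protein (LOC_Os04g39150, chr4:23278471-23279498 in the authors' table, whose genome build is not stated in the sources used), a member of the major latex protein family, was listed at 2109, 1641 and 2017 FPKM in the 3 panicle libraries and at 4.51, 3.39 and 0.737 FPKM in the leaf libraries (log2 change 9.10, SE 0.39, limma adjusted p = 2.25e-07). Its panicle mean was 1922 ± 248 FPKM (SD, n = 3), and the flowering panicles had 152 ± 77.3 FPKM. MFS18 protein (LOC_Os01g14850) had a panicle mean of 1037 ± 145 FPKM and a leaf mean of 1.30 ± 0.853 FPKM (log2 change 8.89). Non-specific lipid-transfer protein 1 at LOC_Os01g60740, of a family of small proteins that bind lipids outside the cell, stood at 720.0, 811 and 1091 FPKM in the panicles and at 1.85, 1.29 and 0.0730 FPKM in the leaves. The 4 neighbouring genes annotated as proline-rich protein 4, structural proteins of the cell wall, rose by 8.37 to 8.71 log2 units. They lie side by side on chromosome 10 (LOC_Os10g05970, LOC_Os10g05980, LOC_Os10g05990 and LOC_Os10g06000) with panicle means of 633 to 819.6 FPKM, and reads of such similar copies may have been divided between them. Proline-rich protein 2 (LOC_Os03g14130) reached 342 ± 43.0 FPKM against 0.258 ± 0.202 FPKM. In the flowering panicle it was at 0.361 ± 0.157 FPKM, near the leaf.

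The 5 most abundant transcripts of the booting panicle and the 5 of the leaf had no gene in common. The highest mean, 2249 ± 379 FPKM, belonged to LOC_Os09g31080, which has no description in the deposited table and stood at 17.8 ± 3.19 FPKM in the leaf. An uncharacterized protein (LOC_Os02g40260) followed at 2115 ± 429 FPKM, with 2.91 ± 1.94 FPKM in the leaf, and its log2 change of 9.22 was above that of the MLP-like protein. Tubulin alpha-2 chain (LOC_Os11g14220), a subunit of microtubules, had 1518, 1673 and 1886 FPKM in the panicles and 39.0, 41.9 and 37.5 FPKM in the leaves (log2 change 5.38, SE 0.10, limma adjusted p = 5.11e-09). The heat shock cognate 70 kDa protein (LOC_Os11g47760), a constitutive chaperone, was at 1479, 1557 and 1800.4 FPKM against 338, 352 and 653 FPKM, with leaf replicate 3 well above the other leaf libraries. It was abundant in both organs and was called higher in the panicle (log2 change 1.91, limma adjusted p = 0.000196).

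In the leaf, an uncharacterized protein (LOC_Os01g68300) was at 6408 ± 732 FPKM against 9.29 ± 1.78 FPKM in the panicle (log2 change -9.29). Among genes with an informative description, the largest differences included a metallothionein, a terpene synthase and photorespiratory enzymes. Metallothionein-like protein 3B (LOC_Os05g11320, chr5:6393880-6396096), a small cysteine-rich protein that binds metal ions, was at 6.85, 5.23 and 5.34 FPKM in the panicles and at 3908, 3503 and 3595 FPKM in the leaves (log2 change -9.08, SE 0.10, limma adjusted p = 2.61e-09). Metallothionein-like protein 3A (LOC_Os01g10400) was among the most abundant leaf transcripts at 14158 ± 849 FPKM, against 119 ± 38.7 FPKM in the booting panicle and 2192 ± 245 FPKM in the flowering panicle. Beta-sesquiphellandrene synthase (LOC_Os08g04500), which makes a volatile sesquiterpene, had a leaf mean of 1023 ± 27.8 FPKM and a panicle mean of 1.59 ± 0.239 FPKM (log2 change -8.63). Catalase-1 (LOC_Os03g03910), which removes the hydrogen peroxide formed in peroxisomes, stood at 6.67, 6.77 and 6.23 FPKM against 1704, 1797 and 1885 FPKM. The peroxisomal (S)-2-hydroxy-acid oxidase GLO1 (LOC_Os03g57220), which forms that peroxide when it oxidizes glycolate in photorespiration, was at 4.36 ± 1.35 FPKM in the panicle and 1102 ± 45.4 FPKM in the leaf. A zeaxanthin cleavage dioxygenase (LOC_Os02g47510), an enzyme of carotenoid breakdown, changed by -8.21 log2 units. An anthocyanidin reductase (LOC_Os07g40974) changed by -7.42, the cysteine protease ervatamin-B (LOC_Os06g38450) by -7.65, and LOC_Os01g73250, described as homeotic protein female sterile, by -8.32. The most abundant leaf transcript of all was Rubisco activase (LOC_Os11g47970), which keeps the carbon-fixing enzyme in its active state, at 15986, 15106 and 15693 FPKM. Its panicle values were 72.7, 78.2 and 55.5 FPKM (log2 change -7.82), and the flowering panicle lay between them at 1404 ± 122 FPKM.

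Floral MADS-box factors, the transcription factors that specify floral organs, were higher in the panicle with few exceptions. Of 19 listed genes, 17 passed the filter, 15 were called higher in the panicle, 1 was called higher in the leaf and 1 was not called, and their median change was 4.16. The E-class gene MADS1 (LOC_Os03g11614, chr3:6052750-6061369), needed for the lemma and palea, was the most abundant of them at 360.1, 363 and 379 FPKM in the panicle and 6.37, 5.93 and 4.62 FPKM in the leaf (log2 change 5.80, SE 0.10, limma adjusted p = 4.43e-09). MADS8 (LOC_Os09g32948) reached 177, 162 and 153 FPKM against a leaf mean of 0.436 ± 0.166 FPKM, a log2 change of 6.85. A further MADS box protein (LOC_Os08g41950) changed by 6.78, MADS5 (LOC_Os06g06750) by 6.27 and MADS6 (LOC_Os02g45770) by 6.07. The B-class gene MADS16 (LOC_Os06g49840), which acts in lodicules and stamens, was at 208 ± 6.25 FPKM in the panicle and 10.7 ± 0.599 FPKM in the leaf. The C-class genes MADS3 (LOC_Os01g10504) and MADS58 (LOC_Os05g11414), which act in stamens and carpels, changed by 4.65 and 4.07. MADS13 (LOC_Os12g10540), an ovule identity gene, was at 6.43 ± 0.466 FPKM in the booting panicle and 39.0 ± 5.40 FPKM in the flowering panicle. The members that did not pass the filter were also low at booting. MADS29 (LOC_Os02g07430) had 0.461, 0.496 and 0.528 FPKM in the panicle and was listed at 0 in every leaf library, and LOC_Os01g66290, annotated with ovule development, had 1.42, 1.34 and 0.869 FPKM against 0.0583, 0 and 0 FPKM.

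The exceptions were the single genes MADS14 and MADS18, and they do not stand for a class of MADS-box genes. Both are of the APETALA1/FRUITFULL type, which acts in the floral transition as well as in the flower. MADS14 (LOC_Os03g54160) was at 49.4, 54.1 and 53.7 FPKM in the panicles and 147, 147 and 147 FPKM in the leaves, a 2.81-fold higher leaf mean (log2 change -1.47, SE 0.06, limma adjusted p = 1.35e-07). MADS18 (LOC_Os07g41370) was at 95.0, 91.4 and 87.1 FPKM against 117, 124 and 121 FPKM, a change of -0.40 that did not reach the fold needed for a call. Of the other listed MADS-box genes, whose type is not given here, RMADS212 (LOC_Os03g54170) was called higher in the panicle at 36.4 ± 4.41 FPKM against 7.80 ± 0.641 FPKM. RMADS215 (LOC_Os07g01820) was likewise called, at 101 ± 7.15 FPKM against 10.4 ± 0.543 FPKM. MADS14 and MADS18 held most of the summed 302 to 312 FPKM of the group in the leaf libraries.

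Outside the MADS-box family, the transcription factor with the largest increase in the panicle was bHLH137 (LOC_Os08g42470), at 94.0, 97.0 and 98.1 FPKM against 0.275, 0.0980 and 0.0235 FPKM (log2 change 6.43). In flowering panicles it stood at 0.693 ± 0.124 FPKM. In the leaf, the transcription factors with the largest increases were the following. CONSTANS-LIKE 3 (LOC_Os02g08150), a B-box zinc finger protein, had 0.379, 0.177 and 0.280 FPKM in the panicles and 71.0, 75.3 and 77.1 FPKM in the leaves (log2 change -5.89, SE 0.08, limma adjusted p = 2.95e-09). The factors annotated as UNE10 (LOC_Os10g40740) and PIF5 (LOC_Os03g56950), basic helix-loop-helix proteins of the phytochrome-interacting type, changed by -5.73 and -4.90. A putative Myb factor (LOC_Os01g74410) changed by -4.99, and LOC_Os08g09840, a BED-type zinc finger protein of the RICESLEEPER kind derived from transposases, by -5.41.

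Anther genes had the highest median change of the 24 groups. Of 13 genes for sporopollenin and the anther wall, all 13 passed the filter and were called higher in the panicle, and their median was 6.52. Sporopollenin is the tough polymer of the outer pollen wall, built from fatty acid and phenolic precursors that the tapetum makes and exports. Type III polyketide synthase A (LOC_Os10g34360, chr10:18316325-18318781), which makes polyketide precursors, was at 648, 250.4 and 446 FPKM in the panicles and 0.721, 0.679 and 0.196 FPKM in the leaves (log2 change 8.11, SE 0.33, limma adjusted p = 1.55e-07). Polyketide synthase B (LOC_Os07g22850) was at 55.6, 26.3 and 50.6 FPKM against 0.0212, 0.115 and 0.0859 FPKM. The fatty acid hydroxylases cytochrome P450 704B1 (LOC_Os03g07250) and 703A2 (LOC_Os08g03682) had 228, 95.2 and 193 FPKM and 160.0, 68.4 and 129.8 FPKM in the panicles. Fatty acyl-CoA reductase 2 (LOC_Os03g07140), which reduces fatty acids to alcohols, had 135, 50.8 and 86.7 FPKM, and the exporter ABC transporter G family member 26 (LOC_Os06g40550) had 37.1, 16.6 and 28.9 FPKM. In all of these genes replicate 1 was the highest and replicate 2 the lowest of the panicle libraries. The anther gene YY1 (LOC_Os09g35700) was also lowest in replicate 2 but highest in replicate 3, at 259.9, 179 and 354 FPKM.

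Other anther genes varied in a different way among the same libraries. The tapetum gene RTS (LOC_Os01g70440), named through a RefSeq synonym, was at 39.0, 362 and 32.6 FPKM in booting panicles 1, 2 and 3, and at 43.0, 93.9 and 175 FPKM in the flowering panicles. Replicate 2 was thus the highest panicle library for RTS and the lowest for the polyketide synthases. YLS3 (LOC_Os11g37280) was at 296, 213 and 125 FPKM. ABC transporter G family member 11 (LOC_Os10g35180) and the CER1 protein (LOC_Os10g33250), which act in cuticle lipids of the anther, varied little, at 31.8 ± 0.589 and 125 ± 15.7 FPKM. Flowering panicles held 0.887 ± 0.170 FPKM of polyketide synthase A and 57.4 ± 8.16 FPKM of CER1.

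Regulators of the tapetum were called higher in the panicle wherever they passed the filter. Of 8 listed genes, 7 passed the filter and all 7 were called higher in the panicle, with a median of 2.74. After quantile normalization 5 were called. The basic helix-loop-helix factor bHLH91 (LOC_Os04g51070), a regulator of tapetal cell death, had 43.5, 32.1 and 42.7 FPKM in the panicles and 0.110, 0.0339 and 0 FPKM in the leaves (log2 change 5.26, SE 0.13, limma adjusted p = 1.26e-08). ABORTED MICROSPORES (LOC_Os02g02820), a factor needed for the degeneration of the tapetum, was at 46.0, 33.2 and 43.6 FPKM against 0.251, 0.372 and 0.270 FPKM. TIP2 (LOC_Os01g18870), which acts earlier in tapetum differentiation, was at 14.8, 14.1 and 18.6 FPKM and was listed at 0 in each leaf library. All of these were lower in the flowering panicle, where bHLH91 stood at 4.37 ± 1.43 and TIP2 at 1.39 ± 0.341 FPKM. UDT1 (LOC_Os07g36460), named through a RefSeq synonym, changed by 2.65, the leucine-rich repeat receptor kinase MSP1 (LOC_Os01g68870) by 2.74, the TPD1 homolog (LOC_Os12g28750) by 1.57 and GAMYB (LOC_Os01g59660), a gibberellin-responsive Myb factor, by 1.20. The PHD finger protein MALE STERILITY 1 (LOC_Os09g27620), a late tapetum regulator, did not pass the filter at 1.30, 0.765 and 1.21 FPKM and was listed at 0 in the leaf libraries.

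**Figure D4:**
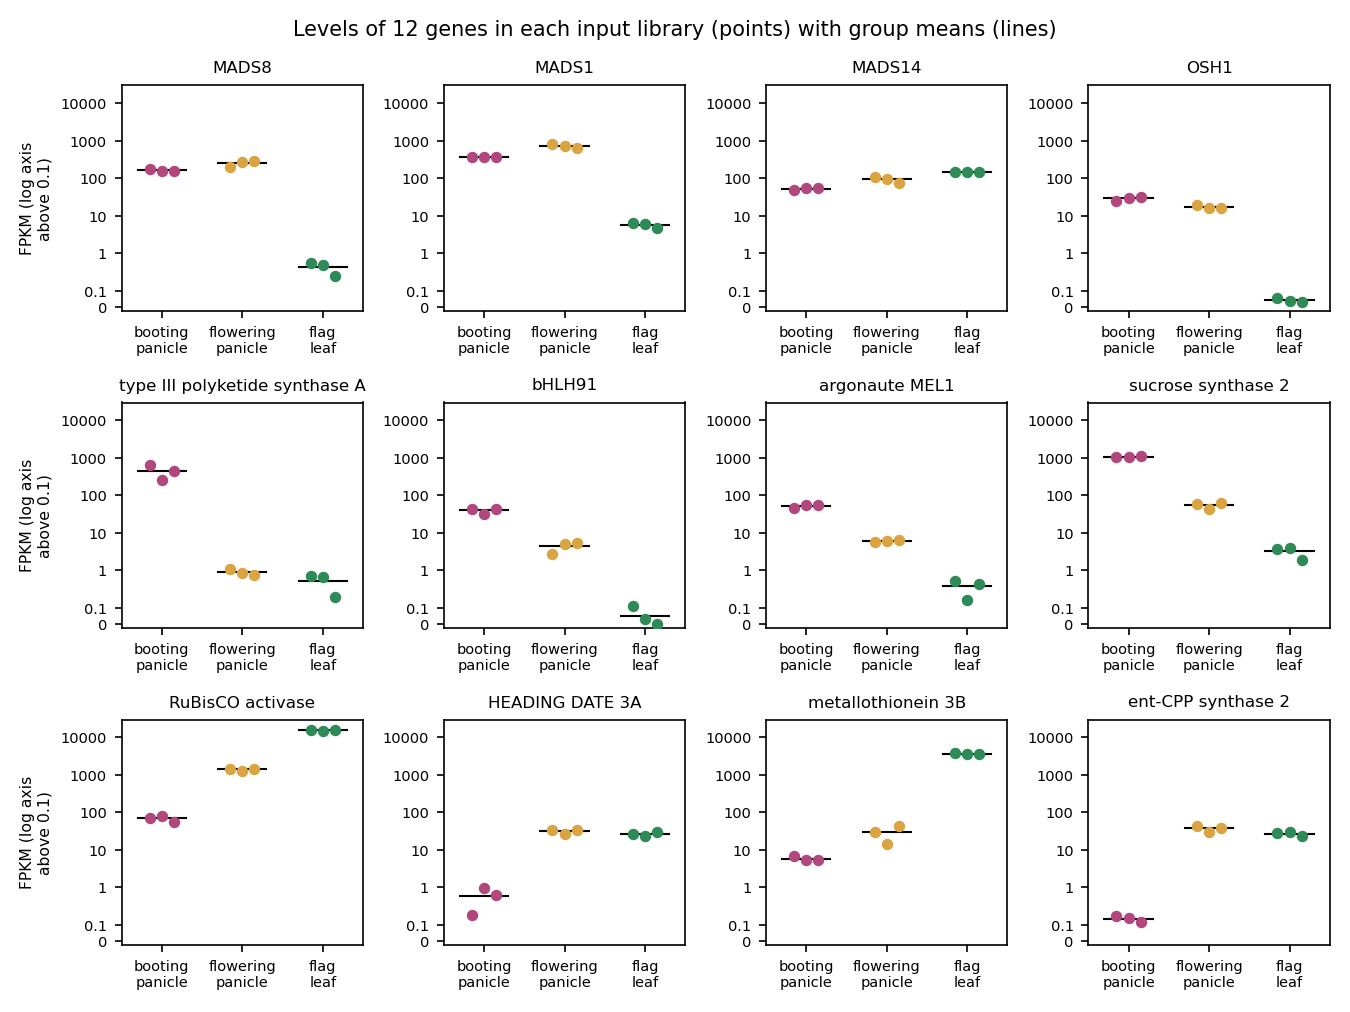
FPKM of 12 genes in each input library (points) with the group mean (line), on an axis that is linear from 0 to 0.1 and logarithmic above. Polyketide synthase A, bHLH91, MEL1 and sucrose synthase 2 stand highest in the booting panicle, the MADS8 and MADS1 genes in both kinds of panicle, and Rubisco activase and metallothionein 3B in the leaf.

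Meiosis genes were expressed at low levels and mostly called higher in the panicle. All 16 listed genes passed the filter, 12 were called higher in the panicle and 4 were not called, with a median of 2.08. With 5 FPKM in place of 1 FPKM added before the logarithm, 6 of them were called. MEL1 (LOC_Os03g58600, chr3:33371341-33380303), an argonaute of germ cells that is needed for meiosis, was at 46.0, 55.5 and 55.8 FPKM in the panicles and 0.520, 0.158 and 0.443 FPKM in the leaves (log2 change 5.29, SE 0.13, limma adjusted p = 1.28e-08). HORMA domain-containing protein 1 (LOC_Os09g32930), of a family that organizes meiotic chromosome axes, was at 48.9, 49.3 and 47.5 FPKM against 2.95, 1.94 and 2.69 FPKM. These stood well above the rest of the group, whose panicle means lay under 9 FPKM. The meiotic cohesin subunit sister chromatid cohesion 1 protein 1 (LOC_Os05g50410) was at 6.12, 6.55 and 6.29 FPKM, and LOC_Os04g37960, annotated with the synaptonemal complex, was at 6.30, 5.94 and 6.11 FPKM. LOC_Os05g41880, annotated with meiotic mismatch repair, changed by 2.56, and LOC_Os10g26560, annotated with meiotic nuclear division, by 2.94. PAIR1 (LOC_Os03g01590), which is needed for homologue pairing, had 3.46, 3.95 and 4.29 FPKM against 0.0169, 0 and 0.0171 FPKM. The recombinase DMC1 (LOC_Os12g04980) had 2.95, 3.04 and 3.17 FPKM against 0.133, 0.0479 and 0.0917 FPKM, and the crossover helicase MER3 (LOC_Os02g40450) changed by 1.75. The other 4 members differed by less than the fold for a call. SPO11-1 (LOC_Os03g54091), which makes the breaks that start recombination, was at 4.37 ± 0.186 FPKM in the panicle and 2.10 ± 0.155 FPKM in the leaf. The log2 difference was 0.32 in MSH4 (LOC_Os07g30240) and 0.60 in ZIP4 (LOC_Os01g66690). It was 0.36 in LOC_Os11g04954, annotated as a recombinase, so the listed recombinase genes did not all differ as LOC_Os12g04980 did.

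Genes for germline and phased small RNAs were mixed. Of 6 listed, 4 were called higher in the panicle and 2 were not called, with a median of 1.60. Argonaute 1D (LOC_Os06g51310) was at 156, 163 and 172 FPKM in the panicles against 17.2, 16.5 and 16.3 FPKM in the leaves (log2 change 3.22, SE 0.06, limma adjusted p = 4.69e-09). LOC_Os10g34430, annotated as a ribonuclease III of small RNA processing, was at 7.75 ± 0.760 FPKM against 1.14 ± 0.119 FPKM, and the RNA-dependent RNA polymerase SHL2 (LOC_Os01g34350) changed by 1.17, a call that was lost after quantile normalization (0.61). Argonaute 18 (LOC_Os07g28850) was not called at 6.92, 5.71 and 6.10 FPKM against 8.08, 7.33 and 10.4 FPKM, nor was LOC_Os04g43050, annotated as a ribonuclease III, at 0.39 log2 units. In the wider group of chromatin silencing and small RNA genes, 27 of 58 tested members (66 listed) were called higher in the panicle and 1 higher in the leaf, against 38.6% and 18.9% over all genes, and the median was 0.90. With 5 FPKM added before the logarithm 16 were called higher in the panicle. Argonaute 1B (LOC_Os04g47870) was at 145 ± 5.25 FPKM against 15.7 ± 0.615 FPKM, and the histone methyltransferase EZ1 (LOC_Os06g16390), which writes the repressive mark of Polycomb complexes, at 29.4 ± 0.299 FPKM against 2.41 ± 0.0249 FPKM. The member called higher in the leaf was a short locus described as Dicer homolog 1 (LOC_Os03g02960, chr3:1194255-1196505). It was at 12.6, 14.2 and 12.6 FPKM against 33.1, 31.6 and 36.4 FPKM (log2 change -1.30). Whether this locus holds the whole gene of that microRNA-processing enzyme was not tested.

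Genes of panicle architecture and meristems divided between transcripts still present at booting and transcripts near 0 in both organs. Of 12 listed genes in the table, 7 passed the filter, 5 were called higher in the panicle, 1 higher in the leaf and 1 was not called. OSH1 (LOC_Os03g51690), a knotted-type homeobox gene that maintains meristems, was at 24.9, 29.6 and 32.7 FPKM against 0.0584, 0.0370 and 0.0354 FPKM (log2 change 4.84, SE 0.11, limma adjusted p = 9.06e-09). The related knotted-1-like 12 (LOC_Os07g03770) was at 19.0 ± 2.74 FPKM against 0.0263 ± 0.0296 FPKM. DROOPING LEAF (LOC_Os03g11600), which specifies carpels, was at 18.9, 19.7 and 19.5 FPKM in the panicles and 0.205, 0.0951 and 0 FPKM in the leaves. Squamosa promoter-binding-like protein 14 (LOC_Os08g39890), a regulator of branching, changed by 2.11, and LOC_Os09g26999 by 2.57. The receptor kinase FLORAL ORGAN NUMBER1 (LOC_Os06g50340) was not called (0.89). The member higher in the leaf was the cytokinin-activating phosphoribohydrolase LOG (LOC_Os01g40630), with 3.09, 6.44 and 5.39 FPKM in the panicles and 182, 178 and 177 FPKM in the leaves (log2 change -4.96, SE 0.20, limma adjusted p = 1.53e-07). The other 5 genes did not pass. Monoculm1 (LOC_Os06g40780), G1-like5 (LOC_Os10g33780), G1 (LOC_Os07g04670), the transcription factor FL (LOC_Os04g51000) and cytokinin dehydrogenase 2 (LOC_Os01g10110) were each under 1 FPKM in all 6 libraries.

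Many genes of cell division and growth were called higher in the panicle. Of 30 tested core histone genes (32 listed), 23 were called higher in the panicle and 7 were not called, with a median of 2.65. Of 93 tested genes for replicating DNA or driving the cell cycle (106 listed), 60 were called higher in the panicle and 2 higher in the leaf, with a median of 1.97, and after quantile normalization 52 and 6. Of 150 cytosolic ribosomal protein genes, all of them tested, 122 were called higher in the panicle and 1 higher in the leaf, with a median of 1.41. Quantile normalization called 97 of the ribosomal protein genes higher in the panicle. Histone H2A.5 (LOC_Os03g17100), which packs newly replicated DNA, was at 285, 378 and 429.8 FPKM in the panicles against 5.74, 7.17 and 4.68 FPKM in the leaves (log2 change 5.73, SE 0.18, limma adjusted p = 4.14e-08). Histones H2A.6 (LOC_Os05g02300) and H3.2-like (LOC_Os06g06460) stood at 63.5, 80.5 and 88.7 FPKM and 42.9, 59.6 and 67.6 FPKM in the panicles. For each of these histones panicle replicate 3 was the highest and replicate 1 the lowest of the panicle libraries. The replication licensing factors MCM3 (LOC_Os05g39850) and MCM6 (LOC_Os05g14590), subunits of the replicative helicase, were at 28.7 ± 3.57 FPKM and 22.2 ± 2.52 FPKM against leaf means of 0.0794 ± 0.0357 and 0.0453 ± 0.00759 FPKM. Cyclin-dependent kinase F-4 (LOC_Os02g47220) was at 97.8 ± 0.691 FPKM against 10.5 ± 0.125 FPKM. The 2 members called higher in the leaf were both annotated as 70 kDa subunits of replication protein A, which binds single-stranded DNA. LOC_Os01g08890 was at 16.7 ± 2.45 FPKM in the panicle and 94.5 ± 1.68 FPKM in the leaf, and LOC_Os03g63870 at 11.3 ± 1.33 and 53.5 ± 2.15 FPKM. The 32 kDa subunit C (LOC_Os06g47830) of the same complex was higher in the panicle (3.84). Summed over the ribosomal protein group, the panicle libraries held 17459, 19443 and 22103 FPKM and the leaf libraries 7605, 7551 and 6888 FPKM. The ribosomal protein gene called higher in the leaf was an L18a-like protein (LOC_Os05g49020), at 7.12 ± 1.10 FPKM against 20.6 ± 0.724 FPKM.

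Cuticle, wax and lipid-transfer genes and genes of the secondary wall and lignin were called in both directions, with more of them higher in the panicle. Of 120 tested cuticle, wax and lipid-transfer genes (178 listed), 89 were called higher in the panicle and 14 higher in the leaf, with a median of 2.67. GDSL esterase/lipase LTL1 (LOC_Os04g42860) was at 164, 153 and 180.0 FPKM against 0.195, 0.378 and 0.0800 FPKM (log2 change 7.10, SE 0.10, limma adjusted p = 3.13e-09). Fatty acyl-CoA reductase 1 (LOC_Os08g44360), which makes fatty alcohols, was at 117 ± 7.04 FPKM against 0.252 ± 0.124 FPKM, and ECERIFERUM 3 (LOC_Os06g44300), a protein of wax alkane synthesis, at 50.8 ± 4.75 FPKM against 0.0619 ± 0.0585 FPKM. Another gene described as non-specific lipid-transfer protein 1 (LOC_Os12g02320) was opposite to the LOC_Os01g60740 copy above. It was at 2.01, 3.55 and 1.54 FPKM in the panicles and 398, 439 and 448 FPKM in the leaves, so genes with the same description were abundant in different organs. Of 86 tested genes of secondary wall and lignin (120 listed), 54 were called higher in the panicle and 16 higher in the leaf, with a median of 1.78. This group was collected by words in the gene descriptions, so its members need not be specific to secondary walls. A gene described as cellulose synthase A catalytic subunit 5 (LOC_Os03g62090) was at 101, 90.7 and 98.8 FPKM against 0.973, 0.955 and 0.833 FPKM (log2 change 5.67, SE 0.07, limma adjusted p = 2.74e-09). The named members include fasciclin-like arabinogalactan proteins, glycoproteins of the cell surface. FLA13 (LOC_Os05g48900) stood at 195 ± 14.7 FPKM, FLA1 (LOC_Os08g23180) at 114 ± 10.7 FPKM and FLA10 (LOC_Os03g03600) at 47.2 ± 2.77 FPKM, all with leaf means under 1 FPKM. In the other direction, cinnamoyl-CoA reductase 1 (LOC_Os09g31514), an enzyme of monolignol synthesis, was at 0.419, 0.445 and 0.293 FPKM in the panicles against 103, 96.3 and 114 FPKM in the leaves.

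Genes of sucrose and starch metabolism held members of both organs. Of 66 tested (81 listed), 27 were called higher in the panicle and 20 higher in the leaf, with a median of 0.50, close to that of all genes. Sucrose synthase 2 (LOC_Os03g28330, chr3:16301277-16307632), which cleaves sucrose in importing tissues, was at 1039, 1059.6 and 1149.9 FPKM in the panicles and 3.74, 3.95 and 1.92 FPKM in the leaves (log2 change 8.05, SE 0.19, limma adjusted p = 1.24e-08). It stood at 54.1 ± 10.4 FPKM in the flowering panicles. The cell wall invertase at LOC_Os04g33740 was at 26.9 ± 1.89 FPKM against 0.0569 ± 0.0504 FPKM. ADP-glucose pyrophosphorylase, which commits glucose to starch, was higher in the panicle for a large subunit (LOC_Os05g50380, 190.0 ± 12.7 against 7.15 ± 0.650 FPKM) and a small subunit (LOC_Os09g12660, 110.4 ± 3.53 against 8.08 ± 0.133 FPKM). Sugar exporters of the SWEET family divided between the organs. SWEET11 (LOC_Os08g42350) was at 46.6, 47.9 and 49.2 FPKM in the panicles against 0.101, 0.0576 and 0.0204 FPKM in the leaves. SWEET1b (LOC_Os05g35140) was at 0.218, 0.433 and 0.193 FPKM against 32.0, 32.9 and 36.2 FPKM, and SWEET13 (LOC_Os12g29220) changed by -3.27. Among the invertases, the cytosolic invertase 1-like gene (LOC_Os04g35280) was higher in the leaf, at 10.6 ± 0.487 FPKM against 0.183 ± 0.0215 FPKM.

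Jasmonate, gibberellin and heat shock genes also moved in both directions. Of 31 tested jasmonate genes (50 listed), 12 were called higher in the panicle and 10 higher in the leaf, and after quantile normalization 7 and 11. Their median of 0.58 was that of all genes, and the share called higher in the panicle was near the 38.6% of all genes. The group was collected by words in the gene descriptions and took in 9S-lipoxygenases, so its members need not all serve jasmonate. Lipoxygenases, which start the oxidation of fatty acids, showed the widest range. Lipoxygenase 2.3 (LOC_Os02g10120), a chloroplast form, was at 0.401, 0.283 and 0.223 FPKM in the panicles and 169.8, 172 and 162 FPKM in the leaves (log2 change -7.02, SE 0.07, limma adjusted p = 2.34e-09), whereas the 9S-lipoxygenase LOC_Os03g49380 was at 39.2 ± 3.55 FPKM against 4.99 ± 0.583 FPKM. Genes described as 60 kDa jasmonate-induced protein (LOC_Os10g42060 and LOC_Os03g48220) were higher in the panicle by 4.21 and 4.39 log2 units. Of 8 gibberellin genes, 6 passed the filter, 5 were called higher in the panicle and 1 higher in the leaf, and 3 of the 5 stayed called after quantile normalization. The isoenzymes of the GA 20-oxidase step differed. GA 20-oxidase 1 (LOC_Os03g63970) was at 26.8, 24.6 and 25.6 FPKM in the panicles against 2.52, 2.72 and 2.99 FPKM in the leaves, and GA 20-oxidase 2 (LOC_Os01g66100) at 4.52, 3.89 and 3.90 FPKM against 25.2, 21.6 and 22.0 FPKM. The receptor GID1 (LOC_Os05g33730) changed by 1.85 and the DELLA repressor SLR1 (LOC_Os03g49990) by 1.52. GA 3-beta-dioxygenase 2-3 (LOC_Os01g08220) changed by 1.01, at the edge of the call, which was lost without panicle replicate 1 (0.99), leaf replicate 1 (0.98) or leaf replicate 3 (0.9996). Cytochrome P450 714D1 (LOC_Os05g40384), which inactivates gibberellins, changed by 1.08. The genes that did not pass were high only in panicle replicate 2 or at flowering. Gibberellin 2-beta-dioxygenase 2 (LOC_Os05g06670) was at 0.870, 6.90 and 1.39 FPKM in the booting panicles, 0.392, 0.468 and 0.266 FPKM in the leaves and 201 ± 51.0 FPKM in the flowering panicles, and GA 3-beta-dioxygenase 2-2 (LOC_Os05g08540) at 0.390, 1.56 and 0.277 FPKM in the booting panicles and 35.9 ± 7.84 FPKM at flowering. Of 47 tested heat shock genes (57 listed), 25 were called higher in the panicle and 5 higher in the leaf, with a median of 1.03. Quantile normalization gave 18 and 8, and 5 FPKM added before the logarithm gave 16 for the panicle. A small heat shock protein of the chloroplast (LOC_Os10g07210) was at 55.1, 55.4 and 69.0 FPKM against 0.167, 0.140 and 0.0678 FPKM, and the stromal 70 kDa chaperone LOC_Os05g23740 was higher in the leaf, at 470.2 ± 14.7 FPKM against 86.8 ± 9.30 FPKM.

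In the leaf, the photosynthetic apparatus was higher nearly throughout. Of 54 tested genes for photosystem and antenna proteins (60 listed), 53 were called higher in the leaf and 1 was not called, with a median of -3.10. All 54 were called after quantile normalization. Summed over the group, the leaf libraries held 34308, 34980.0 and 34847 FPKM and the booting panicles 2597, 3392 and 2434 FPKM. The photosystem II 10 kDa polypeptide (LOC_Os08g10020) was at 204, 267 and 176 FPKM in the panicles and 9522, 9757 and 9526 FPKM in the leaves (log2 change -5.49, SE 0.18, limma adjusted p = 5.48e-08). The Rieske-type subunit (LOC_Os07g37030) of cytochrome b6-f, which carries electrons between the photosystems, was at 27.2 ± 4.21 FPKM against 879 ± 5.21 FPKM. PSB27-H1 (LOC_Os03g21560), a repair factor of photosystem II, was at 11.2 ± 0.239 FPKM against 137 ± 8.72 FPKM. The group also takes in genes described as chloroplast-encoded. LOC_Os06g46436 and LOC_Os07g22498, both described as photosystem I subunit VII, had nearly equal values in every library, and reads of such copies cannot be assigned with certainty. LOC_Os04g16770, annotated as the D1 protein, had 19.7, 261 and 129 FPKM in the leaf libraries, with a spread nearly as large as its mean.

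Carbon fixation and photorespiration followed the same direction with a few exceptions. Of 22 tested genes (24 listed), 16 were called higher in the leaf and 3 higher in the panicle, with a median of -3.31. The group was collected by words in the gene descriptions, so it also took in cytosolic phosphoglycerate kinases. Serine-glyoxylate aminotransferase (LOC_Os08g39300), a photorespiratory enzyme of the peroxisome, was at 2.76, 3.60 and 1.87 FPKM in the panicles and 579, 603 and 584 FPKM in the leaves (log2 change -7.33, SE 0.15, limma adjusted p = 7.92e-09). Chloroplast glyceraldehyde-3-phosphate dehydrogenase B (LOC_Os03g03720) was at 18.9 ± 2.80 FPKM against 1064 ± 32.8 FPKM. Fructose-bisphosphate aldolase of the chloroplast (LOC_Os11g07020) stood among the 5 most abundant leaf transcripts at 4938 ± 91.5 FPKM. The 3 members called higher in the panicle were a Rubisco small subunit, a glycine cleavage protein and a phosphoglycerate kinase. The Rubisco small subunit at LOC_Os02g05830 changed by 1.59, glycine cleavage system H protein 2 (LOC_Os06g45670), a mitochondrial protein, by 3.63, and a cytosolic phosphoglycerate kinase (LOC_Os06g45710) by 2.24. Chlorophyll synthesis had 10 of 17 tested genes called higher in the leaf and 2 higher in the panicle, with a median of -1.63, and 1 of the 2 (LOC_Os04g58200) stayed called after quantile normalization. The Mg-chelatase subunit ChlH (LOC_Os03g20700), at the branch towards chlorophyll, was at 35.5, 39.7 and 31.1 FPKM against 374, 408 and 393 FPKM. The protochlorophyllide reductases, the light-dependent step of the pathway, went in opposite directions. Form A (LOC_Os04g58200) was at 159, 161 and 124 FPKM in the panicles against 26.0, 20.2 and 17.9 FPKM in the leaves, and form B (LOC_Os10g35370) at 10.6, 12.1 and 10.3 FPKM against 110.0, 114 and 110.1 FPKM. Plastid ribosomal proteins were opposite to the cytosolic ones, with 26 of 31 called higher in the leaf and 1 higher in the panicle, and a median of -1.86. Ribosomal protein L1 of the chloroplast (LOC_Os05g32220) was at 28.5 ± 3.97 FPKM against 314 ± 4.91 FPKM. The member called higher in the panicle, chloroplast ribosomal protein L19 (LOC_Os02g11030, 1.28), lost its call after quantile normalization (0.76).

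Flowering-time genes were higher in the leaf, where the day length that controls heading is perceived. Of 8 listed, 5 passed the filter and all 5 were called higher in the leaf. HEADING DATE 3A (LOC_Os06g06320, chr6:2940004-2942452), a florigen that moves from leaf to shoot apex, was at 0.182, 0.964 and 0.616 FPKM in the booting panicles and 25.8, 23.9 and 29.5 FPKM in the leaves (log2 change -4.14, SE 0.18, limma adjusted p = 2.58e-07). In flowering panicles it was at 33.1, 27.0 and 33.5 FPKM, in the range of the leaf. Its neighbour HEADING DATE 3B (LOC_Os06g06300) was at 0.0654, 0.0348 and 0.0793 FPKM in the booting panicles and 17.7, 14.7 and 16.5 FPKM in the leaves, and stayed at 0.837 ± 0.179 FPKM in the flowering panicles. Both florigen genes were higher in the leaf than in the booting panicle, and at flowering the panicle level of HEADING DATE 3B was far below that of HEADING DATE 3A. GIGANTEA (LOC_Os01g08700), a clock protein, was at 45.4 ± 7.34 FPKM against 211 ± 10.3 FPKM, and PRR37 (LOC_Os07g49460), a repressor of heading in long days, at 23.8 ± 1.87 FPKM against 90.2 ± 2.88 FPKM. LOC_Os07g15770, annotated with flower development, changed by -1.55. HD1 (LOC_Os06g16370) did not pass, at 0.449, 0.683 and 0.600 FPKM against 0.263, 0.435 and 0.495 FPKM, nor did LOC_Os10g32600 and the nuclear factor Y subunit LOC_Os08g07740, with leaf means of 1.01 ± 0.0558 and 0.355 ± 0.0452 FPKM.

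Chlorophyll breakdown and senescence genes were called higher in the leaf for 5 of 6 members, with a median of -2.17. Pheophorbide a oxygenase (LOC_Os03g05310), which opens the chlorophyll ring, was at 8.41, 8.19 and 8.44 FPKM against 39.9, 41.5 and 42.9 FPKM. NYC1 (LOC_Os01g12710), which converts chlorophyll b, was at 17.9 ± 3.05 FPKM against 82.9 ± 1.48 FPKM. Pheophytinase (LOC_Os06g24730) changed by -2.47 and the NAC factor LOC_Os03g21060 by -2.42, while STAY-GREEN (LOC_Os09g36200), which removes the magnesium of chlorophyll, was not called (-0.29). After quantile normalization all 6 members were called higher in the leaf. Of 8 diterpenoid phytoalexin genes, 6 passed the filter and were called higher in the leaf. Ent-copalyl diphosphate synthase 2 (LOC_Os02g36210), which makes an early precursor of these antifungal compounds, was at 0.174, 0.149 and 0.119 FPKM in the booting panicles and 28.0, 29.0 and 23.9 FPKM in the leaves (log2 change -4.60, SE 0.09, limma adjusted p = 6.46e-09). The flowering panicles reached 37.1 ± 5.77 FPKM. LOC_Os04g09900, annotated with diterpenoid synthesis, was at 0.0976 ± 0.0418 FPKM in the booting panicle, 8.16 ± 0.273 FPKM in the leaf and 25.5 ± 5.57 FPKM in the flowering panicle. With 5 FPKM added before the logarithm, 2 of the 6 were called. Momilactone A synthase (LOC_Os04g10010) and LOC_Os02g36110 did not pass, with leaf means of 0.816 ± 0.176 and 0.745 ± 0.153 FPKM.

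Receptor kinases of the wall-associated family, which bind pectin at the cell wall, were mostly leaf genes. Of 61 genes so described, 32 passed the filter, 27 were called higher in the leaf and 1 higher in the panicle, with a median of -2.52. The call for the panicle member (LOC_Os09g38910, 1.07) was lost without leaf replicate 3 (0.98) and after quantile normalization (0.17). With 5 FPKM added before the logarithm 16 were called higher in the leaf. The gene ChrSy.fgenesh.gene.14, described as wall-associated receptor kinase 3-like, was at 1.67, 0.874 and 0.842 FPKM in the panicles and 740.0, 727 and 739 FPKM in the leaves (log2 change -8.46, SE 0.14, limma adjusted p = 3.74e-09). Wall-associated receptor kinase 1 (LOC_Os11g46900) was at 0.467, 0.175 and 0.295 FPKM against 189, 182 and 196 FPKM, and kinase 2 (LOC_Os04g30240) at 20.8 ± 1.02 FPKM in the leaf with panicle values of 0.0117, 0.0231 and 0 FPKM. The summed level of the family was 40.1, 41.3 and 35.9 FPKM in the panicles and 1233, 1228 and 1266 FPKM in the leaves, where ChrSy.fgenesh.gene.14 alone held more than the rest together.

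The m6A peak lists were set against these expression classes. The authors' lists give 19083 peaks in 16489 genes for the booting panicle and 19549 peaks in 16665 genes for the flag leaf, 1 list per group and no value per replicate, so the shares below have no test. Among the 8404 genes called higher in the panicle, 55.8% had a peak in both lists, 8.16% only in the panicle list and 4.59% only in the leaf list. Among the 4117 genes called higher in the leaf, 50.1% had a peak in both lists, 1.94% only in the panicle list and 12.5% only in the leaf list. The 3088 genes with at least 5 FPKM in both organs and a change of under 0.5 log2 units had a peak in both lists in 86.8% of cases, only in the panicle list in 0.389% and only in the leaf list in 2.40%. The median level of the panicle genes was 14.3 FPKM in the panicle and 1.21 FPKM in the leaf, and that of the leaf genes 2.29 and 18.4 FPKM. The part of the level in whether a peak was listed was not tested.

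**Figure D5:**
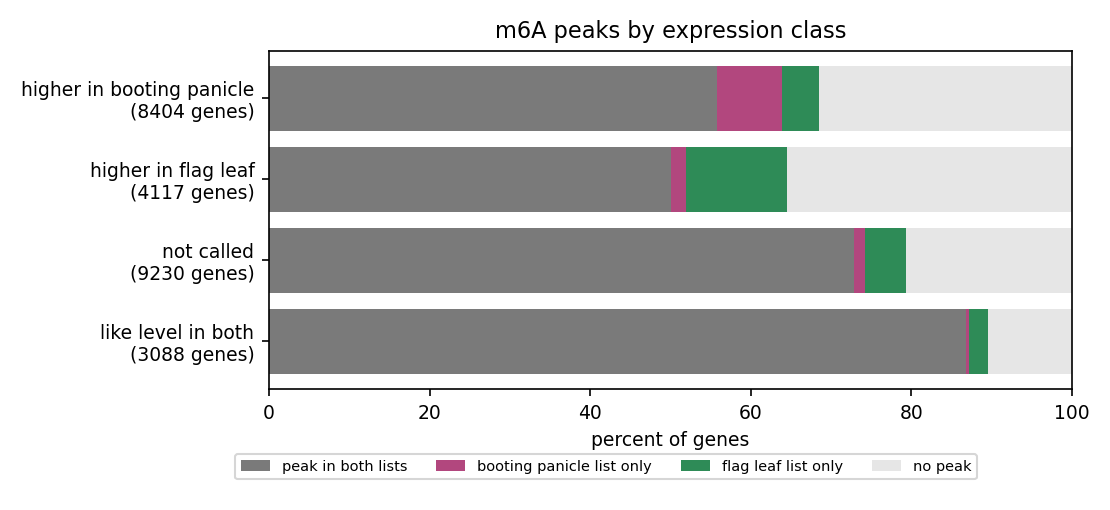
Percent of genes (x axis, starting at 0) with an m6A peak in both lists, in the booting panicle list only, in the flag leaf list only or in neither, for 4 expression classes (rows, gene numbers in brackets). Genes at a like level in both organs have a peak in both lists in 86.8% of cases, and leaf-only peaks are most frequent among genes higher in the leaf (12.5%).

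In neither list was a peak given for 31.5% of genes called higher in the panicle and 35.5% of those higher in the leaf. For genes at a like level in both organs the share was 10.4%. Several genes with a large expression difference had a peak in both lists, but most of the named genes with the largest changes had none. Those without a peak in either list include the MLP-like protein (LOC_Os04g39150), MFS18 protein (LOC_Os01g14850), polyketide synthase A (LOC_Os10g34360) and beta-sesquiphellandrene synthase (LOC_Os08g04500). MADS1 (LOC_Os03g11614) had a peak in the 3' UTR in each list, with a fold of immunoprecipitate over input of 79.0 in the panicle list and 9.89 in the leaf list, both the authors' values and comparable only within a list. OSH1 (LOC_Os03g51690) had a 3' UTR peak in each list although its leaf level was under 0.1 FPKM in every library. Catalase-1 (LOC_Os03g03910) and GLO1 (LOC_Os03g57220) had a 3' UTR peak in each list. Their folds were 10.7 and 20.5 in the panicle list and 4.16 and 5.04 in the leaf list. These folds, too, are not comparable between the lists. MADS box protein LOC_Os08g41950 had 2 peaks in the panicle list and none listed in the leaf, TIP2 (LOC_Os01g18870) 1 and none. LOC_Os08g41950 was at 0.593, 0.732 and 0.122 FPKM in the leaf libraries, and TIP2 was listed at 0 in each. The part of these low levels in the missing leaf peaks was not tested. Sucrose synthase 2 (LOC_Os03g28330), at over 1000 FPKM in the panicle, had a peak only in the leaf list, with a fold of 2.0. Rubisco activase (LOC_Os11g47970) and metallothionein-like proteins 3A (LOC_Os01g10400) and 3B (LOC_Os05g11320), all abundant in the leaf, had no peak in either list.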

How the data were processed

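The deposited values are the authors' FPKM per gene, 1 column for each of 9 input libraries, and 1 m6A peak list per group with a ratio (fold of immunoprecipitate over input) per peak. Per the labels' protocols the libraries are strand-specific (dUTP method) and made from fragmented poly(A) RNA. The submitters' processing notes name HISAT2, StringTie, cutadapt, HOMER and ChIPseeker. No version, genome build or strand option is stated for them, so overlapping and antisense genes may share reads. A step between low values was searched for in each library, and the step with the highest share of whole multiples was kept. With it, 34.5% to 39.3% of low values per library lay within 0.1 of a whole multiple. A step fixed beforehand would give 20% for any value, so the shares are not comparable. Reads were not recovered and depth is unknown.

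Levels were tested as log2(FPKM + 1) with limma 3.58.1 in R 4.3.3 (empirical Bayes with a trend, 2 groups of 3 libraries, Benjamini-Hochberg adjustment over 21751 genes). The groups share replicate numbers, but residuals of same-numbered libraries correlated at -0.0047, -0.0255 and -0.0043, so the libraries were not treated as pairs. Tables were summarised with Python 3.11.15 and pandas 2.3.3.

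The 24 gene groups and the members named were chosen with earlier results of these data known; 10 groups are lists of loci and 14 were collected by words in the deposited descriptions. Of 107 loci listed, 3 were left out, because the table lacks the locus or its annotation does not give the family. Named genes are the 10 largest called changes each way among genes of 20 FPKM or more whose groups do not overlap and whose description is informative (not uncharacterized, hypothetical, a transposon or the like), 5 transcription factors each way on the same terms, the 5 most abundant genes of each organ, up to 4 members per group in its main direction and 2 in the other, and the listed loci. LOC_Os02g05830, LOC_Os12g29220 and LOC_Os04g16770 were added after their values were seen. Alternatives were a pseudocount of 0.1 or 5, no filter or a mean of at least 5 FPKM, equal library sums, quantile normalization, all 9 inputs, no trend, a replicate block and each library left out.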

Additional observations from a re-analysis of the deposited data

How the results depend on the processing

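The 12521 calls numbered 12419 to 12644 when 1 library was left out (8349 to 8474 higher in the panicle, 4013 to 4187 higher in the leaf). A replicate block gave 12528 calls and kept all 12521. Adding 5 FPKM before the logarithm left 7812 calls, 5105 for the panicle and 2707 for the leaf, and a filter of a mean of at least 5 FPKM, which tests fewer genes, left 8139, with 5312 for the panicle. Other totals were 13832 with 0.1 FPKM added, 12773 without a filter, 12693 with equal library sums, 11383 after quantile normalization, 12524 with all 9 inputs and 12521 without a trend. Of the 12521 calls, 9802 kept their direction after quantile normalization. Of 152 named changes, 8 lost their call with 5 FPKM added and 6 after quantile normalization, and no named change reversed in the alternatives run. Among genes at a like level, peaks with a fold of at least 4 gave 1.04% in the panicle list only and 4.47% in the leaf list only, and a minimum of 10 FPKM gave 1.67% in the leaf list only; the cause was not tested. The 3 libraries per group and the unknown depth limit what can be said of genes near 0 FPKM.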
